A study of Homo sapiens with 6 samples.

Results

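Ephrins and Eph receptors were followed in cells treated with polydatin (PD), a plant stilbene glucoside, or with DMSO, its solvent. The set held 10 genes, the ephrin ligand genes EFNA1, EFNA4, EFNA5, EFNB1 and EFNB2 and the receptor genes EPHA2, EPHA4, EPHB2, EPHB3 and EPHB4. They were selected on the FPKM of the same PD and DMSO libraries, because EFNA1 was seen to fall strongly with PD while EFNB2 and EPHB2 rose, so the PD against DMSO values of these 10 genes are given as a description, without a test. The expression table listed 9 of them among its 28563 genes, and EPHA4 was not analysed here. Of these 9, 8 reached the mean of 0.5 FPKM (fragments per kilobase of gene, scaled to the mapped fragments of the library) that a gene needed to enter the fit across genes, and EPHB3 did not.

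Poly(A) RNA was sequenced from cells labelled HepG2, a human line derived from a liver cancer and widely used as a model of hepatocellular carcinoma. The PD group was 3 dishes given 336 µM PD for 24 h and the DMSO group was 3 dishes given solvent alone for the same time, with 1 library per dish. The methods of the study give a somewhat lower dose than the sample labels. All dishes came from 1 cell line, so p-values measure the spread between dishes of that line and not between donors or lines. The libraries held 16308476 to 18071632 fragments, a range in which both groups lay.

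The label HepG2 was set against 20 hepatocyte markers, of which the table listed 10. Only CPS1 (a mitochondrial urea cycle enzyme), RBP4 and FOXA1 reached 1 FPKM in any library. The other 7, among them APOA1, SERPINA1, TF, FGA, FGG and HNF4A, were at or below 0.172 FPKM in every library, although HepG2 is known for making such plasma proteins. The summed level of the 10 markers, nearly all of it CPS1, was 223 to 229.8 FPKM with DMSO and 109 to 114 FPKM with PD. RBP4 and FOXA1 went the other way, 3.32-fold and 1.597-fold higher with PD (limma adjusted p of 0.0027 and 0.016), from means of 0.391 and 0.873 FPKM with DMSO. Of the epithelial markers, 4 of 7 (EPCAM, KRT8, KRT18 and CLDN4) reached 1 FPKM. The list summed to 103 to 109 FPKM under DMSO and 127 to 133 FPKM under PD, most of it KRT8 and KRT18. KRT8, CLDN3 and CLDN4 were higher in every PD library than in every DMSO library, and EPCAM, KRT18 and ESRP1 overlapped. CDH1 went the other way, from 0.127 to 0.0343 FPKM in mean without overlap, and was thus near absent in both groups. ESRP1 was at or below 0.0377 FPKM in every library. No endothelial or leukocyte marker reached 1 FPKM. EFNB2 and EPHB4, which are often read as endothelial genes, were thus measured in cells without PECAM1, CDH5 or VWF above that level. The neuronal list had none at that level either, and of the fibroblast list COL1A1 and PDGFRB reached it, with sums of 4.52 to 5.40 FPKM under DMSO and 4.82 to 5.09 FPKM under PD. The part of these markers in the changes below was not tested.

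Ephrins are ligands that stay on the surface of the cell that makes them, so they act between touching cells. The ephrin-A proteins are held by a lipid (GPI) anchor and chiefly bind the EphA receptors, while the ephrin-B proteins span the membrane and chiefly bind the EphB receptors. Eph receptors are the largest family of receptor tyrosine kinases, and binding signals both into the cell with the receptor (forward signaling) and into the cell with the ligand (reverse signaling). The pathway is known for sorting cells at tissue boundaries, for guiding axons and vessels and, in epithelial cancers, for control of adhesion and migration.

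The promoters of EFNA1, EFNB2 and EPHB2 are shown because the opposite courses of these 3 genes define the set. Each sequence is the 250 bases before the RefSeq start in GRCh38.p14, read 5′ to 3′ on the strand of the gene, at chr1:155127626-155127875 (plus strand) for EFNA1, chr13:106535663-106535912 (minus strand) for EFNB2 and chr1:22710588-22710837 (plus strand) for EPHB2. Capitals mark GGGCGG on either strand, the core of the SP1 motif.
EFNA1: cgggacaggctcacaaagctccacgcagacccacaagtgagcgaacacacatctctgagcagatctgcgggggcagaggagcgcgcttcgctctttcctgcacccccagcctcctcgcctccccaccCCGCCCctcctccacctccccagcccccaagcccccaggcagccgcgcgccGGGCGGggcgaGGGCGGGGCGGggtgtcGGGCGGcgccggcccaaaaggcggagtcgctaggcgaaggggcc
EFNB2: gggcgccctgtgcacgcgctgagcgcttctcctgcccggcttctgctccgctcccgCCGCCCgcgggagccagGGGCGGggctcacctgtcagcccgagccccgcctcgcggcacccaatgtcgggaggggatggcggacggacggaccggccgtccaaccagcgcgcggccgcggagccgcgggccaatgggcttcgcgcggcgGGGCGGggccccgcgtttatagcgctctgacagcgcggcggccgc
EPHB2: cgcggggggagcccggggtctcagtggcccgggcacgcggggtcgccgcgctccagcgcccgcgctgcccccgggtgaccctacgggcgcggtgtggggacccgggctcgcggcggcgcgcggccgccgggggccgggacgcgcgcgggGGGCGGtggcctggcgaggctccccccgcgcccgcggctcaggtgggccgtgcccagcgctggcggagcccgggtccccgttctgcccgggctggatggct
All 3 windows were rich in G and C, with 73.2% in EFNA1, 78.4% in EFNB2 and 84.8% in EPHB2 against a median of 58% over 27305 RefSeq promoters. EFNA1 held 5 SP1 matches between 123 and 39 bases before its start, of which 2 shared a base. EFNB2 held 3 matches and EPHB2 held 1. All 10 promoters of the set, EPHA4 included, held at least 1 match, as did 42.3% of all promoters. None of the 10 held a match to the NF-kB (kappaB) motif, to the AP-1 motif TGANTCA or to the E-box CACGTG on either strand, and 9.57%, 6.60% and 6.49% of all promoters did. A match is a description of letters, and the absence of one refers to these 250 bases alone.

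EFNA1, the ephrin-A ligand first isolated as a gene induced by tumour necrosis factor (TNF), was the most highly expressed gene of the set with DMSO and had the lowest log2 fold change of the set. It was at 86.8, 86.6 and 87.7 FPKM in the DMSO libraries and at 16.5, 15.8 and 15.9 FPKM in the PD libraries. Every PD library was far below every DMSO library, and the values within each group lay within a narrow band. The mean was 87.0 ± 0.585 FPKM (SD, n = 3) with DMSO and 16.1 ± 0.414 FPKM (SD, n = 3) with PD, 5.42-fold lower. The log2 fold change, on log2(FPKM + 1) here and below, was -2.37 ± 0.03 (SE), at rank 4 from the lowest of the 14400 genes fitted. Behind these values stood 3685 to 3809 fragments per DMSO library and 658 to 759 per PD library. The gene lies at 155127876 to 155134899 on the plus strand of chromosome 1 (GRCh38, GENCODE annotation). In bulk RNA, fewer cells that express a gene and less of its RNA per cell cannot be told apart.

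EFNA4, a second GPI-anchored ligand encoded on the same arm of chromosome 1 (155063737 to 155069553, plus strand), took the opposite course. It was at 3.39, 3.02 and 4.44 FPKM with DMSO and at 7.14, 7.86 and 7.09 FPKM with PD. The groups did not overlap, although the DMSO libraries spread more widely around their mean than the PD libraries did. The mean was 2.03-fold higher with PD, 7.36 ± 0.431 against 3.62 ± 0.737 FPKM (SD, n = 3 each), and the log2 fold change was 0.87 ± 0.11 (SE). EFNA4 shares 189 exon bases with the readthrough gene EFNA4-EFNA3 on the same strand, so part of its fragments could belong to that transcript.

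EFNA5, the ephrin-A ligand best known from axon guidance, lies at 107376894 to 107670937 on the minus strand of chromosome 5. It was at 2.11, 2.23 and 2.49 FPKM with DMSO and at 2.23, 2.65 and 2.06 FPKM with PD. The groups overlapped throughout, with the lowest and the highest library both in PD. The means of 2.28 ± 0.194 and 2.32 ± 0.302 FPKM (SD, n = 3 each) differed by less than the spread between libraries, and the log2 fold change was 0.01 ± 0.09 (SE). Its sign turned with the library left out, over a range from -0.06 to 0.07.

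EFNB2, a transmembrane ligand best known as a marker of arteries and as the partner of EPHB4, had the highest log2 fold change of the set. It was at 1.64, 2.07 and 1.47 FPKM with DMSO and at 7.33, 7.23 and 7.33 FPKM with PD. The 3 PD libraries were nearly equal, and all were above the highest DMSO library. The mean was 1.73 ± 0.312 FPKM with DMSO and 7.29 ± 0.0595 FPKM with PD (SD, n = 3 each), 4.23-fold higher, on 112 to 155 fragments per DMSO library and 533 to 591 per PD library. Its log2 fold change of 1.61 ± 0.08 (SE) had rank 28 from the highest of the 14400 genes. Because the pseudocount of 1 lies close to its DMSO level, this scale understates the change, and the value was 2.09 in a voom fit on whole fragments. The gene lies at 106489745 to 106535662 on the minus strand of chromosome 13, and 1822 of its exon bases overlap the gene ENSG00000284966 on the opposite strand. No source used here says whether fragments were counted by strand, so the genes cannot be separated over those bases.

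EFNB1, the transmembrane ligand whose loss causes craniofrontonasal syndrome, lies at 68829021 to 68842160 on the plus strand of chromosome X and was also higher with PD. It was at 1.48, 2.14 and 2.08 FPKM with DMSO and at 4.29, 4.48 and 4.13 FPKM with PD, without overlap. The mean was 2.26-fold higher with PD, 4.30 ± 0.175 against 1.90 ± 0.363 FPKM (SD, n = 3 each). The log2 fold change was 0.88 ± 0.10 (SE), and 1.19 by voom on fragments.

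**Figure D1:**
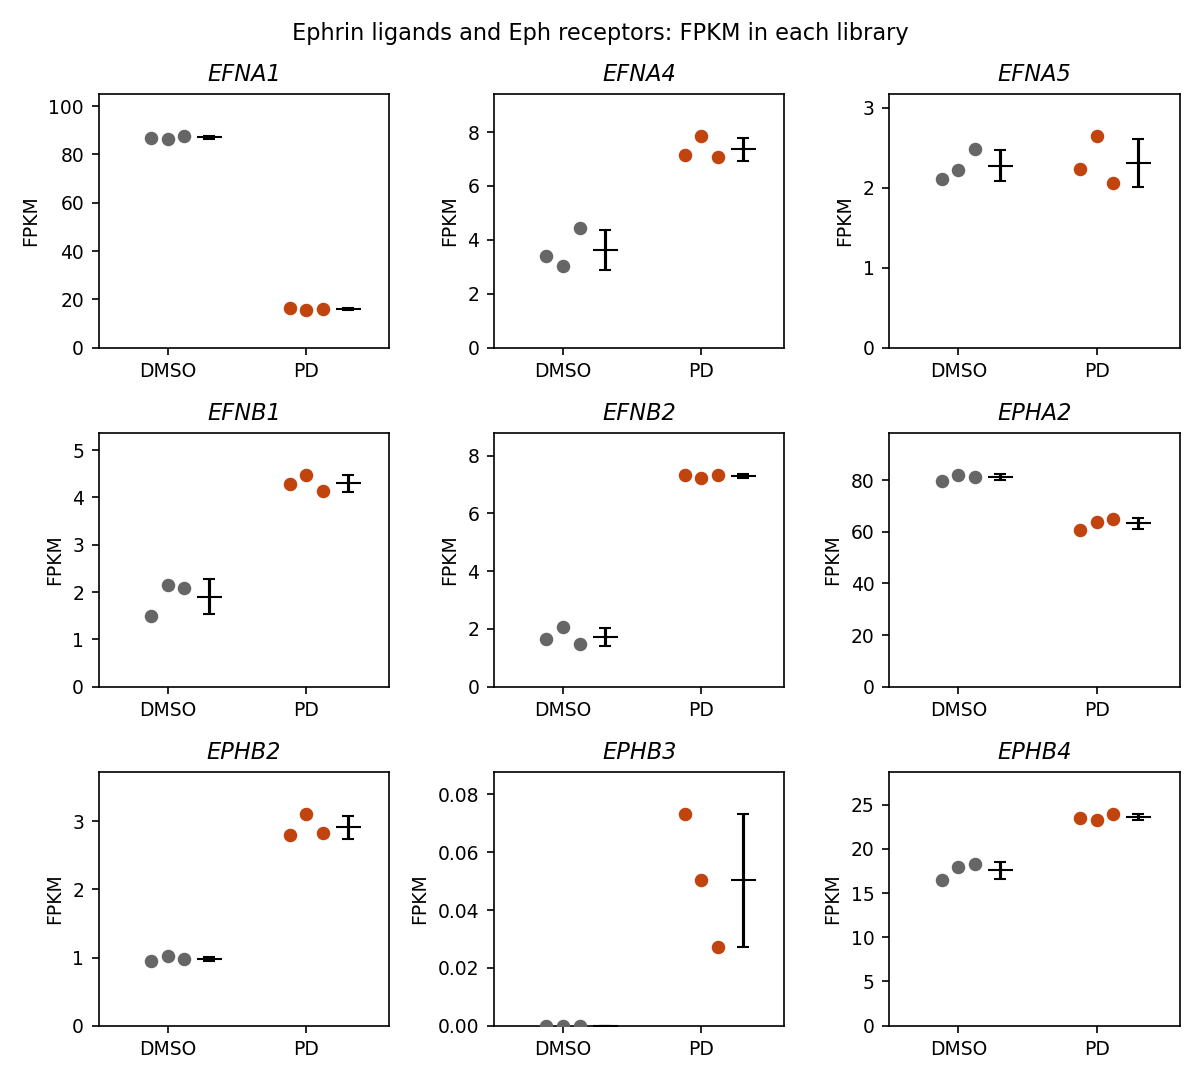
FPKM of the 9 listed ephrin and Eph genes in each library, with DMSO and PD side by side, points for libraries and bars for the mean and SD of 3. EFNA1 is at a mean of 87.0 FPKM with DMSO and 16.1 FPKM with PD, EFNB2 at 1.73 and 7.29 FPKM, and only EFNA5 among the genes that entered the fit has overlapping groups.

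Among the receptors, the EphA member was lower and the EphB members were higher with PD. EPHA2, the main receptor of EFNA1 in epithelial cells, lies at 16124337 to 16156069 on the minus strand of chromosome 1. It was at 79.8, 82.0 and 81.4 FPKM with DMSO and at 60.8, 63.8 and 64.9 FPKM with PD. All PD libraries were below all DMSO libraries, but the step was small beside that of its ligand. The mean went from 81.0 ± 1.17 to 63.2 ± 2.11 FPKM (SD, n = 3 each), 1.28-fold lower, with a log2 fold change of -0.35 ± 0.03 (SE).

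EPHB2, a receptor of the ephrin-B ligands known for positioning cells in the intestinal crypt, lies at 22710839 to 22921500 on the plus strand of chromosome 1. It was at 0.953, 1.02 and 0.976 FPKM with DMSO and at 2.80, 3.11 and 2.82 FPKM with PD. Even the lowest PD library was 2.76-fold above the highest DMSO library. The mean was 2.97-fold higher with PD, 2.91 ± 0.173 against 0.981 ± 0.0316 FPKM (SD, n = 3 each). Despite the low FPKM, its long transcripts gave 206 to 213 fragments per DMSO library and 576 to 682 per PD library. The log2 fold change was 0.98 ± 0.07 (SE), just under the 2-fold line on the log2(FPKM + 1) scale, and was 1.57 by voom.

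EPHB4, the receptor of EFNB2 best known from veins, was the main EphB receptor of these cells. It was at 16.5, 18.0 and 18.3 FPKM with DMSO and at 23.4, 23.3 and 24.0 FPKM with PD. The groups did not overlap, and the PD libraries lay closer together than the DMSO libraries. The mean was 1.34-fold higher with PD, 23.6 ± 0.347 against 17.6 ± 0.970 FPKM (SD, n = 3 each), with a log2 fold change of 0.40 ± 0.05 (SE). The gene lies at 100802565 to 100827523 on the minus strand of chromosome 7 and overlaps SLC12A9 on the opposite strand by 69 exon bases. SLC12A9 itself went from 3.01 to 4.22 FPKM.

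EPHB3, a receptor that acts with EPHB2 in the intestinal crypt, was barely detected. It had 0 fragments in each DMSO library and 6, 4 and 2 fragments in the PD libraries, at most 0.0733 FPKM. Every PD library thus had some fragments and no DMSO library had any. Against a floor of 3 fragments over the DMSO group, the 12 PD fragments were 3.94-fold higher after scaling to depth. This value allows for counting error in the DMSO group alone and takes the 12 as exact, so it is not a lower bound. It does not cover the spread between dishes either. The gene lies at 184561785 to 184582408 on the plus strand of chromosome 3.

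Of the 8 members fitted, 7 had groups that did not overlap, 5 higher (EFNA4, EFNB1, EFNB2, EPHB2 and EPHB4) and 2 lower (EFNA1 and EPHA2) with PD, in a table where this held for 65.4% of all genes fitted, 35.6% higher and 29.9% lower. The same 7 would pass an adjusted p of 0.05, which 58.1% of all genes did, 31.9% higher and 26.2% lower. A change of at least 2-fold on the log2(FPKM + 1) scale was reached by EFNB2 and EFNA1, and 3.61% of all genes passed that line with the adjusted p, 2.04% higher and 1.57% lower. In mean FPKM without a pseudocount, 4 members (EFNA4, EFNB1, EFNB2 and EPHB2) were past 2-fold upwards and 1 (EFNA1) downwards. The median log2 fold change of the 8 was 0.64, beside 0.01 over all genes fitted. Because this contrast chose the members, nothing is read from these counts.

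**Figure D2:**
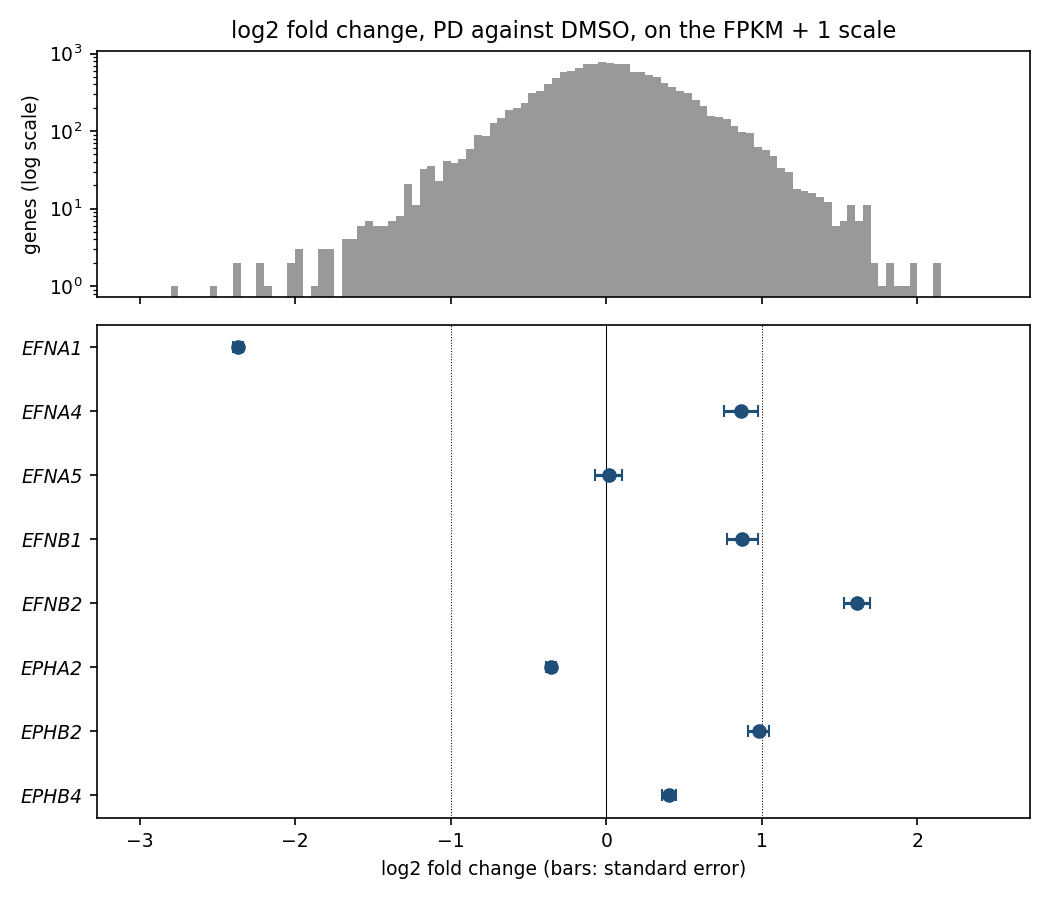
The upper panel is a histogram of the log2 fold changes of all fitted genes (log count axis), and the lower panel gives each fitted ephrin and Eph gene, PD against DMSO on the log2(FPKM + 1) scale, with bars for the SE and dotted lines at 2-fold. Values run from -2.37 for EFNA1 to 1.61 for EFNB2, and EFNA5 lies at 0.01.

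FPKM are per length, so levels can be set side by side within a library. With DMSO the order ran EFNA1, EPHA2, EPHB4, EFNA4, EFNA5, EFNB1, EFNB2, EPHB2 and EPHB3. The libraries of EFNA5 and EFNB1 overlapped in range, as did those of EFNB1 and EFNB2, so the order of these neighbours was not resolved. With PD the order became EPHA2, EPHB4, EFNA1, EFNA4, EFNB2, EFNB1, EPHB2, EFNA5 and EPHB3, with overlap only between EFNA4 and EFNB2. EFNA1 thus went from the first place to the third, behind both main receptors, and EFNA5 went to the place before last. Overlap between neighbours in DMSO went from 2 pairs to 0 without DMSO replicate 1, and in PD from 1 pair to 0 without PD replicate 2. Levels of different genes also depend on the gene model. The length behind the FPKM was 2539 bases for EFNA1 and 4461 bases for EFNB2, where the GENCODE exons cover 2165 and 5005 bases, which leaves each gene's fold between groups as it is.

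Summed over each class, the ligands differed more between the groups than the receptors did. The set was chosen on EFNA1, EFNB2 and EPHB2, which are part of these sums. The sums, shares and ratios here and below thus partly restate that choice and are a description without a test. The 5 ephrin-A genes together were at 95.0, 94.6 and 98.6 FPKM with DMSO and at 28.3, 28.0 and 27.3 FPKM with PD, and the 3 ephrin-B genes were at 3.16, 4.27 and 3.59 FPKM with DMSO and at 11.7, 11.8 and 11.5 FPKM with PD. The ephrin-A sum was 3.45-fold lower with PD and the ephrin-B sum 3.17-fold higher. The fall of the ephrin-A sum was that of EFNA1. Of the other ephrin-A genes, EFNA4 was higher with PD, and EFNA2, EFNA3 and EFNA5 had overlapping groups. The ratio of ephrin-A to ephrin-B went from 26.6 ± 4.05 to 2.39 ± 0.0242 (SD, n = 3 each). The EphA receptors (7 of 9 genes listed) went from 81.9 ± 1.12 to 63.9 ± 2.07 FPKM and the EphB receptors from 18.6 ± 0.992 to 26.5 ± 0.254 FPKM (SD, n = 3 each). Their ratio went from 4.42 ± 0.184 to 2.41 ± 0.0587. All ephrins together went from 99.7 ± 2.15 to 39.5 ± 0.6005 FPKM, 2.52-fold lower, while all receptors went from 100.5 ± 2.09 to 90.4 ± 2.30 FPKM, 1.11-fold lower.

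EFNA1 made up 90.6% ± 1.46 of ephrin-A FPKM with DMSO and 57.7% ± 1.16 with PD (SD, n = 3 each). EFNA4 took 3.76% of the ephrin-A sum with DMSO and 26.4% with PD, and EFNA5 took 2.37% and 8.30%. The growth of the EFNA5 share came with a level of EFNA5 itself that differed by less than its spread. In the ephrin-B sum, EFNB1 and EFNB2 were near equal with DMSO, at 51.8% ± 5.67 and 47.1% ± 5.58, and with PD EFNB2 made up 62.7% ± 1.15. Receptor make-up changed less. EPHA2 was 99.0% of the EphA sum with DMSO and 98.9% with PD, and EPHB4 was 94.7% ± 0.205 of the EphB sum with DMSO and 88.8% ± 0.724 with PD, the rest being nearly all EPHB2.

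The ligand and receptor of each main pair shifted against each other. EFNA1 was at 1.07 ± 0.0168 times the level of EPHA2 with DMSO and at 0.255 ± 0.0150 times with PD (SD, n = 3 each). EPHB4 was at 10.4 ± 1.92 times the level of EFNB2 with DMSO and at 3.23 ± 0.0371 times with PD. These are ratios of RNA levels, and protein at the cell surface was not measured.

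**Figure D3:**
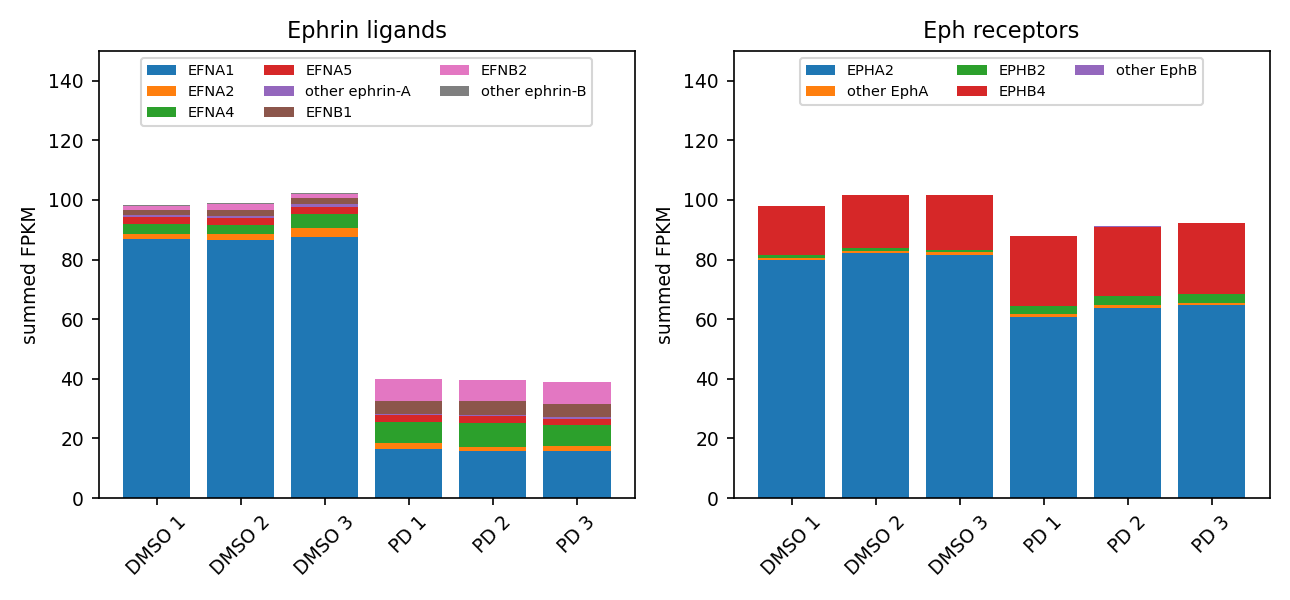
Stacked FPKM of the ephrin genes (left) and the Eph receptor genes (right) in each library, coloured by gene. EFNA1 fills most of the ligand bar with DMSO and less of it with PD, where the ephrin-A genes sum to 27.9 instead of 96.0 FPKM and the ephrin-B genes to 11.6 instead of 3.67 FPKM, while EPHA2 and EPHB4 fill the receptor bars in both groups.

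The other Eph and ephrin genes were a list of 12, of which 11 were in the table and EPHA3 was not analysed here. At or below 0.143 FPKM in every library were 8 of them (EFNB3, EPHA1, EPHA5, EPHA6, EPHA8, EPHA10, EPHB1 and EPHB6), too low for the fit. The 3 that were fitted, EFNA2, EFNA3 and EPHA7, had overlapping groups, and 0 passed an adjusted p of 0.05 by limma. At an unadjusted p under 0.05 there was 1, EFNA3, and voom on fragments called that 1 of 4 fitted. EFNA3, the neighbour of EFNA4 on chromosome 1, was at 0.879, 0.781 and 0.980 FPKM with DMSO and at 0.435, 0.329 and 0.803 FPKM with PD. Its PD replicate 3 stood with the DMSO libraries and the other 2 below them. Its log2 fold change was -0.32 with an adjusted p of 0.0791 (limma, Benjamini-Hochberg), and without PD replicate 3 it was -0.44 with an adjusted p of 0.018. EFNA3 shares 853 exon bases with EFNA4-EFNA3. The log2 fold change was -0.30 for EFNA2, with an adjusted p of 0.123, and -0.10 for EPHA7, with an adjusted p of 0.430 (limma, Benjamini-Hochberg).

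The RNA of genes whose proteins carry the forward signal from Eph receptors changed in both directions. Among these proteins are adaptors, exchange factors and kinases that act on the cytoskeleton. Of 39 listed genes 34 were fitted, and 23 passed an adjusted p of 0.05, 9 higher and 14 lower with PD. That share of 67.6% stood beside 58.1% over all genes, where 31.9% passed as higher and 26.2% as lower. The median log2 fold change was -0.07, and whether the list moved in a direction was not tested. None reached 2-fold on this scale. PAK1, a kinase that acts downstream of Rac and Cdc42, was at 4.18, 4.44 and 3.86 FPKM with DMSO and at 8.64, 8.59 and 8.52 FPKM with PD, with a log2 fold change of 0.89 ± 0.05 (SE) and an adjusted p of 1.5e-05 by limma with Benjamini-Hochberg adjustment. The 2 groups were well apart. The adaptor NCK2 rose by 0.82 on the log2 scale and NGEF, the exchange factor also called ephexin-1 that EphA receptors bind, by 0.62 (limma adjusted p of 0.00039 and 0.00029). ROCK2, a kinase of cell contraction, was at 24.5, 23.3 and 21.8 FPKM with DMSO and at 13.9, 12.4 and 12.1 FPKM with PD, a fall by 0.81 on the log2 scale (limma adjusted p of 4.4e-05). The tyrosine phosphatase PTPN11 fell by 0.58 (limma adjusted p of 0.00018). PAK1, NCK2, NGEF and PTPN11 share some exon bases with a gene on the opposite strand.

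The RNA of genes for ephrin-B partners in reverse signaling, mostly proteins with PDZ domains and polarity factors, changed at about the rate of all genes. Of 15 listed genes 13 were fitted and 8 passed an adjusted p of 0.05, 7 higher and 1 lower, a share of 61.5% beside 58.1% over all genes, of which 31.9% passed as higher. The median log2 fold change was 0.35, and 5 of the 13 had one below 0. Whether the list moved in a direction was not tested. The scaffold GIT1 was at 14.5, 15.4 and 16.9 FPKM with DMSO and at 31.1, 29.8 and 34.8 FPKM with PD, a rise of 0.99 ± 0.07 (SE) on the log2 scale (limma adjusted p of 3.1e-05). The polarity protein PARD6A was at 3.23, 4.21 and 5.03 FPKM with DMSO and at 9.82, 8.82 and 8.82 FPKM with PD, also a rise of 0.99 (limma adjusted p of 0.00038). Neither gene had overlapping groups. The phosphatase PTPN13, which binds the tail of ephrin-B by a PDZ domain, rose by 0.60, and the Dishevelled genes DVL3 and DVL2 by 0.36 and 0.35 (limma adjusted p of 0.00057, 8.0e-05 and 4.6e-05). PICK1, a PDZ protein, fell by 0.31 (limma adjusted p of 0.0048) and was named as the 1 gene past the threshold downwards in this fit. RGS3, ARHGEF7 and STAT3 were also lower in every PD library than in every DMSO library, with log2 fold changes of -0.16, -0.13 and -0.06 (limma adjusted p of 0.110, 0.058 and 0.195). Voom on fragments called 3 genes lower, PICK1, RGS3 and ARHGEF7, and upper-quartile scaling also called 3.

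Eph and ephrin proteins are shed by ADAM10, and those that span the membrane, which the ephrin-A proteins do not, are then cut within it by γ-secretase. Of 9 listed cleavage genes 8 were fitted, and 4 passed an adjusted p of 0.05, all higher with PD. That share of 50% stood beside 58.1% over all genes, where 31.9% passed as higher and 26.2% as lower. These 4 are γ-secretase subunits. PSEN2, a catalytic subunit, was at 5.85, 5.53 and 6.37 FPKM with DMSO and at 9.32, 9.53 and 9.66 FPKM with PD, a rise of 0.60 on the log2 scale (limma adjusted p of 8.5e-05). APH1A rose by 0.41, APH1B by 0.27 and NCSTN by 0.23 (limma adjusted p of 0.00031, 0.028 and 0.0011). APH1B had an adjusted p between 0.022 and 0.087 with single libraries left out and passed 0.05 without DMSO replicate 3 or PD replicate 3 and not without any of the other 4. ADAM10 was at 5.58, 5.48 and 5.03 FPKM with DMSO and at 5.84, 5.00 and 5.51 FPKM with PD, with overlapping groups (log2 fold change 0.02, limma adjusted p of 0.826). PSEN2 shares exon bases with a second gene model on its own strand.

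Since EFNA1 was first found as a TNF-inducible gene, 24 other TNF-inducible genes were described beside it. Of these, 18 were fitted and 17 passed an adjusted p of 0.05, all lower with PD, a share of 94.4% beside 26.2% of all genes that passed in that direction. The median log2 fold change was -1.17. EDN1, which encodes endothelin-1, fell by 2.78 on the log2 scale and the chemokine CXCL8 by 2.54 (limma adjusted p of 1.7e-06 and 2.3e-05). The lectin-like receptor OLR1 fell by 2.25, the ubiquitin-editing enzyme TNFAIP3 by 2.05 and the cytokine IL6 by 2.02 (limma adjusted p of 1.6e-06, 3.2e-06 and 3.6e-06). TNFAIP8, the 1 gene of the list that did not pass, had a log2 fold change of -0.02 (limma adjusted p of 0.825). The direction of part of this list was known from earlier work on these libraries when it was drawn up, so it is no independent evidence.

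**Figure D4:**
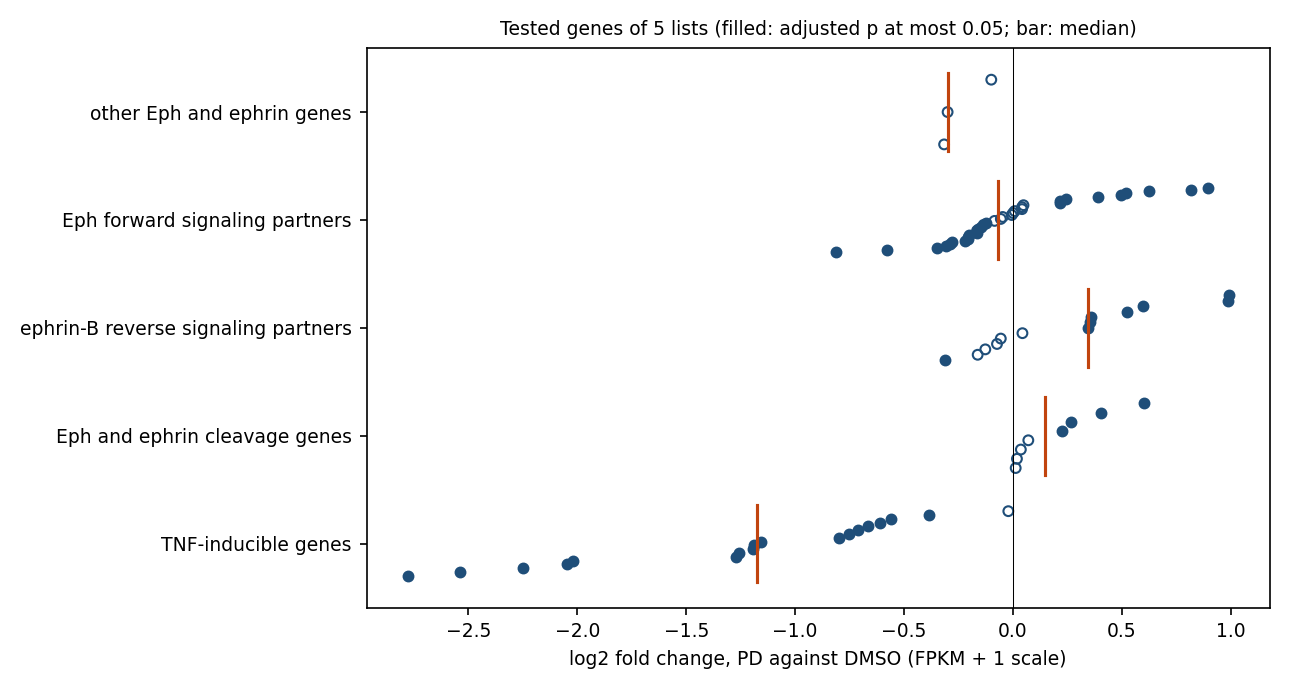
Log2 fold changes of the fitted genes in each list, PD against DMSO on the log2(FPKM + 1) scale, 1 point per gene, filled where the adjusted p is at most 0.05, with a bar at the median. The TNF-inducible genes lie below 0 with a median of -1.17, the ephrin-B reverse signaling partners have a median of 0.35, and the forward signaling partners spread to both sides of 0.

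The region around EFNA1 was described because it holds 3 ephrin-A genes. Within 100 kb of EFNA1 there were 17 other genes in the table, of which 15 were fitted. On the strand of EFNA1, with its start at 0, EFNA4 starts at -64.1 kb and EFNA3 at -49.0 kb. Apart from EFNA4, 7 of 14 genes passed an adjusted p of 0.05, 6 higher and 1 lower with PD, with a median log2 fold change of 0.11. That share of 50% stood beside 58.1% over all genes, where 31.9% passed as higher and 26.2% as lower. SLC50A1, a sugar transporter gene and the nearest to the start of EFNA1 at 7.47 kb, rose by 0.38 (limma adjusted p of 0.0015). DPM3, the next at 12.7 kb, had a log2 fold change of -0.09 and overlapping groups (limma adjusted p of 0.352).

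MUC1, an epithelial mucin and the 1 neighbour past the threshold downwards in this fit (2 by voom, EFNA3 the other), was at 18.8, 17.9 and 17.6 FPKM with DMSO and at 10.8, 10.6 and 11.0 FPKM with PD, a fall by 0.70 on the log2 scale (limma adjusted p of 1.2e-05). The metalloprotease gene ADAM15, upstream of EFNA4, was at 39.7, 40.3 and 40.4 FPKM with DMSO and at 61.4, 63.4 and 62.7 FPKM with PD, a rise of 0.63 (limma adjusted p of 5.6e-06). DCST2 rose by 0.34 (limma adjusted p of 0.024) at under 1.1 FPKM, and without DMSO replicate 3, PD replicate 2 or PD replicate 3 its adjusted p was 0.069, 0.068 and 0.078. At the far end the pseudogene MTX1P1 rose by 1.39 (limma adjusted p of 6.2e-05). It is a highly similar copy of MTX1, so reads may be split between the copies and its value is uncertain. DCST1, DCST1-AS1, KRTCAP2, MTX1 and THBS3 did not pass, with log2 fold changes from -0.12 to 0.12.

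**Figure D5:**
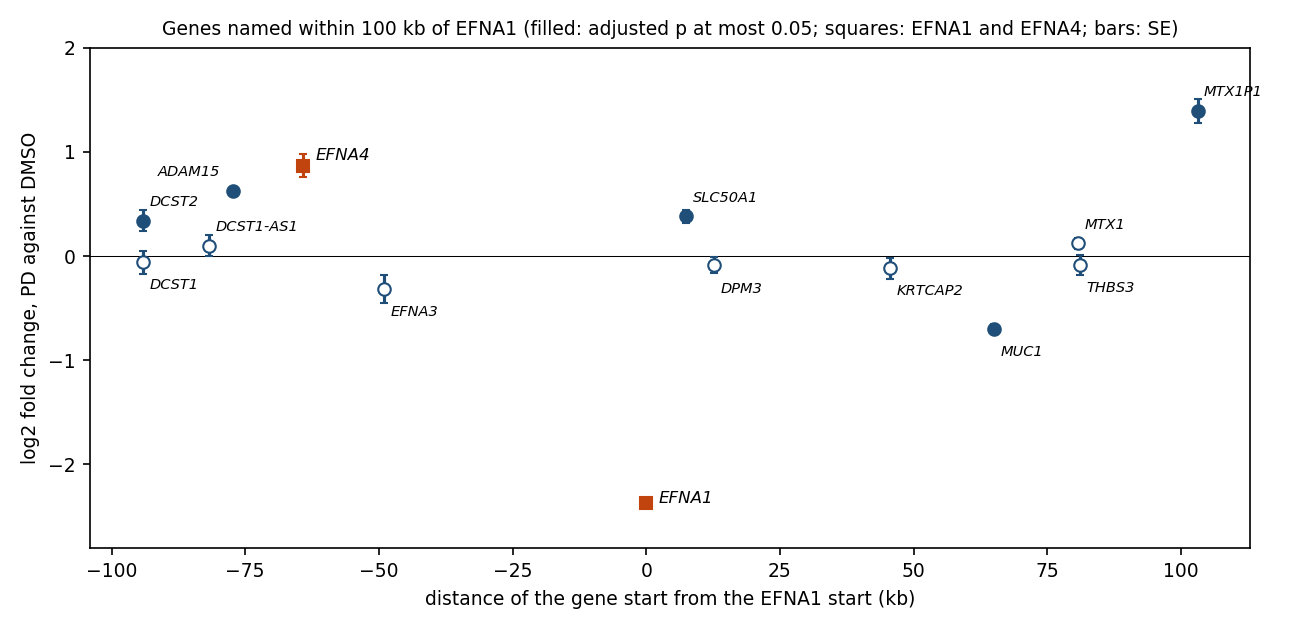
Log2 fold change of the genes named within 100 kb of EFNA1 against the distance of their start from the EFNA1 start in kb, filled circles for an adjusted p of at most 0.05, squares for EFNA1 and EFNA4, and bars for the SE. EFNA1 lies at -2.37, apart from the neighbours shown, which range from -0.70 for MUC1 to 1.39 for MTX1P1.

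The genes whose course over the 6 libraries was most like that of a member were taken from 7575 genes of at least 5 FPKM in mean, by the root mean square difference between profiles of log2(FPKM + 1) centred on their mean. For EFNA1 they were OLR1 with a difference of 0.104, ENSG00000273760 with 0.195 and TNFAIP3 with 0.197. For EFNB2 they were INSIG1, a sterol-regulated protein of the endoplasmic reticulum, with 0.0529, UBTD1 with 0.0574 and ACSS2, an acetyl-CoA synthetase, with 0.0934. For EPHB2 they included FTL (ferritin light chain) with 0.0339 and CRAT (carnitine acetyltransferase) with 0.0353. INSIG1 was at 32.6, 35.9 and 32.5 FPKM with DMSO and at 105.6, 106.3 and 106.9 FPKM with PD. With 2 groups of 3 libraries, likeness mainly reflects a step of the same size between the groups on the log2(FPKM + 1) scale. The pseudocount lowers the step of genes at low FPKM, so the fold in mean FPKM can differ. EFNB2 was 4.23-fold higher with PD, INSIG1 3.15-fold and ACSS2 3.05-fold, while UBTD1 lay nearer at 4.003-fold. EPHB2 was 2.97-fold higher, FTL 1.97-fold and CRAT 2.13-fold.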

How the data were processed

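RNA-seq libraries of 3 PD-treated and 3 DMSO-treated dishes were grouped by the sample titles. Per the labels and the methods of the study, libraries were built by the authors from poly(A) RNA with a NEBNext Ultra kit. HISAT2 placed the reads on hg38, HTSeq 0.6.0 gave a count per gene, and these became FPKM. The deposited FPKM were the values used here. The strand setting of the counting is not given in the sources used here. Symbols came from GENCODE and promoters from RefSeq.

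The 14400 genes whose mean reached 0.5 FPKM were fitted as log2(FPKM + 1) by limma 3.58.1 in R 4.3.3, PD against DMSO without covariates and with an intensity trend in the prior variance. The p-values were two-sided and Benjamini-Hochberg adjusted over all genes fitted. Whole fragments were worked back from the steps in the FPKM (tolerance 0.0001) to show depth and for a limma voom fit on genes with at least 10 fragments in 3 or more libraries. The genes listed held 99.8% of each total. On simulated data for this comparison, limma recovered 95 of 100 changes of 2.5-fold and 100 of 100 of 4-fold, with 6 false calls among 14410 genes. Recovered and false calls alike had to pass an adjusted p of 0.05 and a change of at least 2-fold. They do not give the error rate of calls made on the adjusted p alone, as in the list counts above. Changes were simulated only in genes of at least 5 FPKM in mean, with the spread between replicates set by a dispersion of 0.003. EFNA5, EFNB1, EFNB2, EPHB2 and EPHB3 lie below that level, so this recovery does not cover them.

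Replicates differed by more than sampling noise, with a chi-square per gene of 2.26 to 3.59 within groups and of 47.1 to 54.9 between groups. Alternatives were a pseudocount of 0.1, no filter, median-of-ratios or upper-quartile scaling, voom, a block for replicate number, and omission of single libraries. The members and all gene lists were chosen with earlier results of these data known. The genes named were all members, the other Eph and ephrin genes, the neighbours of EFNA1, the 3 most similar profiles per leading member and, per list, the 5 largest changes past an adjusted p of 0.05 with at least 1 FPKM and groups that did not overlap. PICK1, RGS3, ARHGEF7, STAT3, ADAM10, TNFAIP8, SLC12A9, RBP4 and FOXA1 were added to the named genes once their values were known, and some genes that the rule takes are not reported here.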

Additional observations from a re-analysis of the deposited data

How the results depend on the processing

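The directions of EFNA1, EFNA4, EFNB1, EFNB2, EPHA2, EPHB2 and EPHB4 were the same under all alternatives run, and that of EFNA5 was not. The pseudocount set the fold changes of low genes. Using 0.1 as pseudocount, and using voom, 1248 and 1746 genes passed the adjusted p and the 2-fold line against 520 in the reported fit, 5 members were at or past 2-fold with each against 2, and the median of the members was 0.72 and 0.73 against 0.64. Without a filter on FPKM, which adds EPHB3, that median was 0.40. Voom called 1 of the other Eph and ephrin genes, EFNA3. With single libraries left out, the genes past both lines numbered 511 to 561, the other Eph and ephrin genes called 0 to 1 (EFNA3 without PD replicate 3), the neighbours in level order that overlapped 0 to 2 with DMSO and 0 to 1 with PD, and the members past 2-fold 2 to 3. Leaving out single libraries gave 19 to 22 forward signaling partners, 8 to 9 reverse signaling partners, 3 to 4 cleavage genes, 17 to 18 TNF-inducible genes and 7 to 8 neighbours of EFNA1. With upper-quartile scaling 4166 genes were higher and 4266 lower, against 4588 and 3780 as reported.

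Deviations of same-numbered libraries from their group means had correlations of -0.027, -0.0046 and 0.090, and those of other pairs ran from -0.084 to 0.085. With 3 libraries per group these values cannot settle whether the numbers pair the dishes. With the replicate number as a block, 8032 genes passed the adjusted p and 518 also the 2-fold line, against 8368 and 520 without it, with 22 forward and 8 reverse signaling partners and 3 cleavage genes. Depth limits EPHB3 and the 8 low Eph and ephrin genes, whose values rest on at most 24 fragments per library. Of these 8, voom could fit EPHA5 (log2 fold change -0.75, adjusted p of 0.070). EPHB3, below the filter, gave a value only without it (log2 fold change 0.07), and EPHA4 gave none.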
